A study of Homo sapiens with 6 samples.

Results

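Of the 8 enzymes studied here, which supply cells with asparagine, proline, glutamine, alanine, aspartate and arginine, ASNS and GPT2 mRNA were lower and GLUL mRNA was higher after 5 days of 25(OH)D than with solvent in MDA-MB-453 cells. ASNS fell by 56.1% and GPT2 by 31.2%, while GLUL rose by 32.5%. No change was called for PYCR1, ALDH18A1, ASS1, GOT1 and PC. The 8 genes were picked by name, as enzymes of these pathways, with earlier results of these data known. They came from the 33451 genes listed in the table of counts. All 8 were among the 18183 genes that passed the low-count filter and were tested.

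MDA-MB-453 is a widely used human line derived from a breast carcinoma, and 25(OH)D (25-hydroxyvitamin D, calcidiol) is the circulating precursor of the active vitamin D hormone. Cells of the experimental group were exposed to 100 nM 25(OH)D for 5 days, and control cells received the alcohol solvent for the same time in the same serum-containing medium. Each group has 3 libraries of stranded, polyadenylated RNA, which the study's methods call biological replicates. The labels do not say whether they came from separate cultures, so p-values measure the spread between these libraries, which may be technical.

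The 3 control libraries and the 3 libraries of 25(OH)D held between 33268860 and 40928176 counts. Mitochondrially encoded genes took 7.85% to 7.99% of the counts in control and 8.89% to 9.24% in 25(OH)D. Levels are given in CPM, the usual rescaling of counts to libraries of 1 standard size, with sizes corrected by TMM, a normalisation which assumes that most genes do not change. The 8 luminal apocrine markers of this line were all expressed, XBP1 most of all, and summed to between 10994 and 11296 CPM in control and between 8898 and 9085 CPM in 25(OH)D. ESR1 and PGR, the oestrogen and progesterone receptors, had at most 8 counts in any library. The summed level of the marker lists for leukocytes, endothelium and adipocytes stayed under 0.5 CPM in every library, and that of basal epithelium lay between 0.576 and 1.39 CPM, with TP63 at 12 to 26 counts in control and 2 to 3 counts in 25(OH)D. Of the 6 fibroblast markers only COL1A1 passed the filter, and the list summed to 36.5 to 39.0 CPM in control and 32.0 to 34.7 CPM in 25(OH)D. The part of the mitochondrial share, TP63 and COL1A1 in the results below was not tested. VDR, the vitamin D receptor, rose from 80.8 ± 0.739 to 133 ± 6.16 CPM (SD, n = 3 in each group), with a log2 fold change of 0.72 (adjusted p = 1.94e-08).

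Most cells can make the non-essential amino acids from carbon of glucose and nitrogen of glutamine. Glutamine synthetase fixes ammonia onto glutamate, aminotransferases move the amino group of glutamate onto pyruvate or oxaloacetate to give alanine and aspartate, and aspartate is in turn the substrate of asparagine synthetase and of argininosuccinate synthetase. Proline is built from glutamate by a synthase and a reductase, and pyruvate carboxylase refills the oxaloacetate pool. Several of these enzymes are known targets of ATF4, the transcription factor that raises amino acid supply when amino acids or protein folding are limiting, and proliferating tumour cells often depend on them.

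Log2 fold changes compare 25(OH)D with control and came, with their standard errors (SE), from the quasi-likelihood test of edgeR on the counts, and adjusted p-values were adjusted by Benjamini-Hochberg over all genes tested. A gene was called at an adjusted p under 0.05. By this rule 33.8% of all genes tested were called, 17.3% as higher and 16.5% as lower, so a call is common in this comparison. Of the 8 enzymes 3 were called, 1 as higher and 2 as lower, a share near that background. The median log2 fold change of the 8 was 0.0071, against -0.011 over all genes tested, and their median absolute log2 fold change was 0.22, against 0.23 over all genes. Every library of 1 group lay above every library of the other for 4 of the 8 (ASNS, GPT2, GLUL and ALDH18A1), as it did for 45.7% of all genes tested. By the limits used in the study, an absolute log2 fold change over 1 with an unadjusted p under 0.05, only ASNS among the 8 was called, as lower, where 2.63% of all genes tested were called lower, 4.02% higher and 6.65% in either direction.

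**Figure D1:**
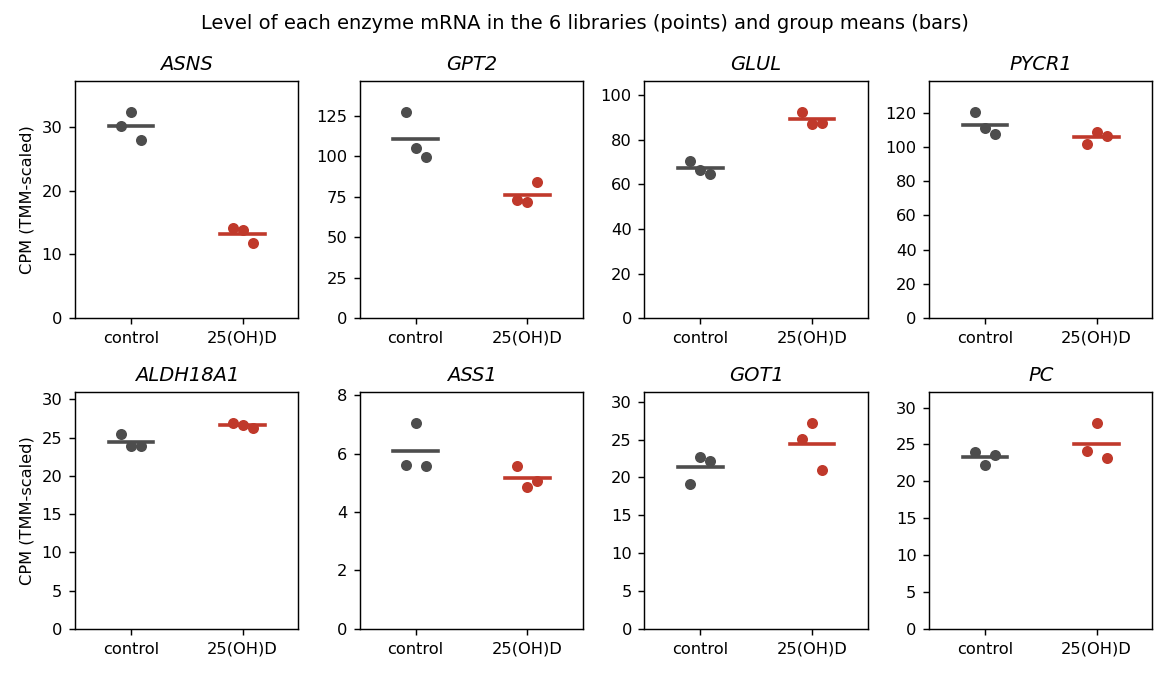
Level of each of the 8 enzymes in CPM (y axis, starting at 0) in the control and 25(OH)D libraries (x axis). Each point is 1 library and each bar is the mean of 3. The groups stand clearly apart for ASNS, GPT2 and GLUL and lie closer together or overlap for the other 5.

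ASNS, asparagine synthetase, makes asparagine from aspartate with glutamine as the nitrogen donor, and lies on the minus strand of chromosome 7 (97852118 to 97872542, GRCh38). Reads counted on ASNS numbered 1253, 1224 and 1030 in control and 496, 530 and 383 in 25(OH)D. Scaled to library size, these were 30.1, 32.4 and 28.0 CPM in control and 14.1, 13.8 and 11.8 CPM in 25(OH)D. Every 25(OH)D library lay well below every control library. On average ASNS fell from 30.1 ± 2.19 CPM to 13.2 ± 1.28 CPM (SD, n = 3 in each group), a log2 fold change of -1.19 (SE 0.0858, 95% interval -1.37 to -1.0, adjusted p = 8.18e-08). ASNS ranked 454th of the 18183 genes by p. No other gene of the table shares exon bases with ASNS. In GENCODE 29, 37.0% of the 100-base stretches of ASNS transcripts are shared with AC079781.5, a gene that spans ASNS, and the entry of that name in the table has 123 exon bases and at most 1 count. The pseudogene ASNSP3 had 14 to 29 counts. In bulk RNA of this kind, fewer cells that express a gene and less of its RNA per cell cannot be told apart.

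The RefSeq promoter table (GRCh38.p14) holds 1 or more start sites for 6 of the 8 genes: ASNS, ASS1, ALDH18A1, GLUL, GOT1 and PC. These windows, from 250 bases before to 50 bases after the start, were searched on both strands for the C/EBP-ATF element TGATGNAA, the kind of site bound by ATF4 with a C/EBP partner. ASNS and GOT1 had a match. The 250 bases before the start are shown for both, since 1 of these genes fell by over 2-fold and the other was not called. Capitals mark the element, and each sequence reads 5′ to 3′ on the gene's own strand, the minus strand of its chromosome.
ASNS, chr7:97872409-97872658: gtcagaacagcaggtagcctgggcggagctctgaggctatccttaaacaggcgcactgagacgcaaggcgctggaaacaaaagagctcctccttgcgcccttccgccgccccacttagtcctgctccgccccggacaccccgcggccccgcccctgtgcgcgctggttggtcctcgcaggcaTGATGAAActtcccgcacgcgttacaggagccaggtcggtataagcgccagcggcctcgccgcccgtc
GOT1, chr10:99430625-99430874: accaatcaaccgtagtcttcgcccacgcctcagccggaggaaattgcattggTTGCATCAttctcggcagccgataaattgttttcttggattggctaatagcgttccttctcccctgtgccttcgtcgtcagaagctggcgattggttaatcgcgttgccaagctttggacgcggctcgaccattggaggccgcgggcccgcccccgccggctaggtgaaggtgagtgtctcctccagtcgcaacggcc

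In ASNS the element TGATGAAA lay at positions -68 to -61 from the start, on the strand of the gene. In GOT1 it lay at -198 to -191 and was on the opposite strand, so that it reads TTGCATCA in the sequence shown. The element was present in 3.62% of the 35116 promoter windows of the table. The other start site of ASNS held no match. The E-box CACGTG, the core site of MYC and its relatives, was found in ASS1 at -71 to -66 and in ALDH18A1 at -136 to -131, and in 7.26% of all windows. No window of the 6 genes held the DR3 vitamin D response element, which 0.074% of all windows held. A match in these letters is a description of the sequence and does not show binding, and a missing match says only that these letters are not in this window.

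ATF4 itself fell, from 387, 394 and 429 CPM in control to 249, 232 and 241 CPM in 25(OH)D. The log2 fold change of ATF4 was -0.75 (SE 0.0450, adjusted p = 1.14e-08), smaller in size than that of ASNS. MYC, a transcription factor that drives growth and biosynthesis, fell from 28.8 ± 1.10 CPM to 11.3 ± 1.33 CPM, with a log2 fold change of -1.35 (adjusted p = 2.30e-08). NARS, the cytosolic enzyme that charges transfer RNA with asparagine, was at 639 ± 13.5 CPM in control and 633 ± 20.3 CPM in 25(OH)D, with a log2 fold change of -0.014 and a 95% interval of -0.092 to 0.063. The mRNA of the enzyme that makes asparagine therefore fell relative to that of the enzyme that uses it. The log2 ratio of ASNS to NARS within a library was lower by 1.18 on average in 25(OH)D, with no overlap between groups. AGA, the lysosomal enzyme that cleaves asparagine from sugar chains, rose by 20.1% (log2 fold change 0.26, adjusted p = 0.00492).

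Among the 8106 genes with a symbol and a mean of at least 10 CPM, the 5 whose log2 CPM followed ASNS most closely over the 6 libraries were MKI67 (Pearson r 0.999), CKAP5, ZNF274, INTS6 and PUM2 (r 0.998 each). MKI67 encodes the proliferation marker Ki-67, and CKAP5 a microtubule-binding protein of the mitotic spindle. The 6 points form 2 groups that differ in ASNS, so r mainly measures the step between the groups and is given as a description. The log2 fold changes of these 5 genes lay between -0.48 and -0.16, all smaller in size than that of ASNS.

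GPT2, the mitochondrial alanine aminotransferase, moves the amino group of glutamate onto pyruvate and yields alanine and 2-oxoglutarate. The gene lies on the plus strand of chromosome 16 (46884378 to 46931297). It was at 127, 105 and 99.7 CPM in the control libraries and at 73.0, 71.5 and 84.4 CPM in the 25(OH)D libraries. The groups did not overlap, though the spread within each was wider than for ASNS. The fall in GPT2 was from 111 ± 14.6 to 76.3 ± 7.05 CPM on average (SD, n = 3), a log2 fold change of -0.54 (SE 0.0833, 95% interval -0.72 to -0.36, adjusted p = 1.54e-04). GPT, the cytosolic form of the same enzyme, was far lower, at 2.81 to 4.18 CPM in control and 3.78 to 6.08 CPM in 25(OH)D, and was not called (log2 fold change 0.38, 95% interval -0.060 to 0.82, adjusted p = 0.178). In GPT, 207 exon bases lie opposite CTD-2517M22.14, which had 1368 to 1926 counts against 117 to 198 counts of GPT. Per gene length, GPT2 was 10.9 to 19.7 times GPT in the control libraries and 6.03 to 8.37 times GPT in the 25(OH)D libraries.

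GLUL, glutamine synthetase, makes glutamine from glutamate and ammonia, and lies on the minus strand of chromosome 1 (182381704 to 182392206). It was at 70.5, 66.4 and 64.7 CPM in control and at 92.4, 87.2 and 87.6 CPM in 25(OH)D. All 25(OH)D libraries lay above all control libraries. The mean rose from 67.2 ± 2.96 to 89.1 ± 2.90 CPM (SD, n = 3), a log2 fold change of 0.41 (SE 0.0503, 95% interval 0.30 to 0.51, adjusted p = 2.03e-05).

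Proline is made from glutamate by ALDH18A1, the pyrroline-5-carboxylate synthase, followed by PYCR1, the mitochondrial pyrroline-5-carboxylate reductase. ALDH18A1 (chromosome 10, 95605929 to 95656706, minus strand) was at 25.4, 23.8 and 23.8 CPM in control and at 26.9, 26.7 and 26.2 CPM in 25(OH)D. Its groups stood apart by a narrow margin, and the log2 fold change of 0.13 was not called (SE 0.0640, 95% interval -0.011 to 0.26, adjusted p = 0.150). PYCR1 (chromosome 17, 81932384 to 81942412, minus strand) was at 120, 111 and 107 CPM in control and at 102, 109 and 106 CPM in 25(OH)D. The libraries overlapped and the log2 fold change of PYCR1 was -0.097 (SE 0.0504, 95% interval -0.21 to 0.011, adjusted p = 0.160). With libraries scaled to their totals alone, PYCR1 was called lower, at a log2 fold change of -0.14 (adjusted p = 0.0481), and with upper-quartile scaling likewise (adjusted p = 0.0406). Over its exons, 408 bases (14.1%) are shared with MYADML2 on the same strand, which had 6 to 19 counts, and 450 bases lie opposite RP11-498C9.13, which had 42 to 85 counts. The strand setting of the counting is not given in the sources used here.

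PYCRL (PYCR3), the cytosolic paralog of PYCR1, fell from 6.93 ± 0.331 to 4.56 ± 0.197 CPM (log2 fold change -0.60, SE 0.118, adjusted p = 0.00115). Per gene length, PYCR1 was 17.2 to 20.6 times PYCRL in control and 24.0 to 27.8 times PYCRL in 25(OH)D. Breakdown enzymes rose. PRODH, the proline dehydrogenase that carries out the first step of proline oxidation, rose from 194, 200 and 210 CPM to 358, 372 and 386 CPM, a log2 fold change of 0.89 (SE 0.0425, adjusted p = 8.80e-10). In PRODH, 675 exon bases (7.69%) lie opposite DGCR6, which had 1176 to 1872 counts. ALDH4A1, which oxidises pyrroline-5-carboxylate to glutamate, rose by 16.3% (log2 fold change 0.22, adjusted p = 0.00220), but 41.1% of its exon bases are shared with RP13-279N23.2 on the same strand, which had 2964 to 3736 counts. The ratio of PYCR1 to PRODH per gene length went from 1.56 to 1.89 in the control libraries to 0.837 to 0.888 in the 25(OH)D libraries. Per gene length, the mRNA of the breakdown enzyme thus passed that of the reductase in every 25(OH)D library. In CPM, PRODH was above PYCR1 in every control library too (194 to 210 against 107 to 120 CPM). The crossing therefore depends on the exon lengths used, 8776 bases for PRODH and 2886 bases for PYCR1, while the fall in the ratio does not.

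**Figure D2:**
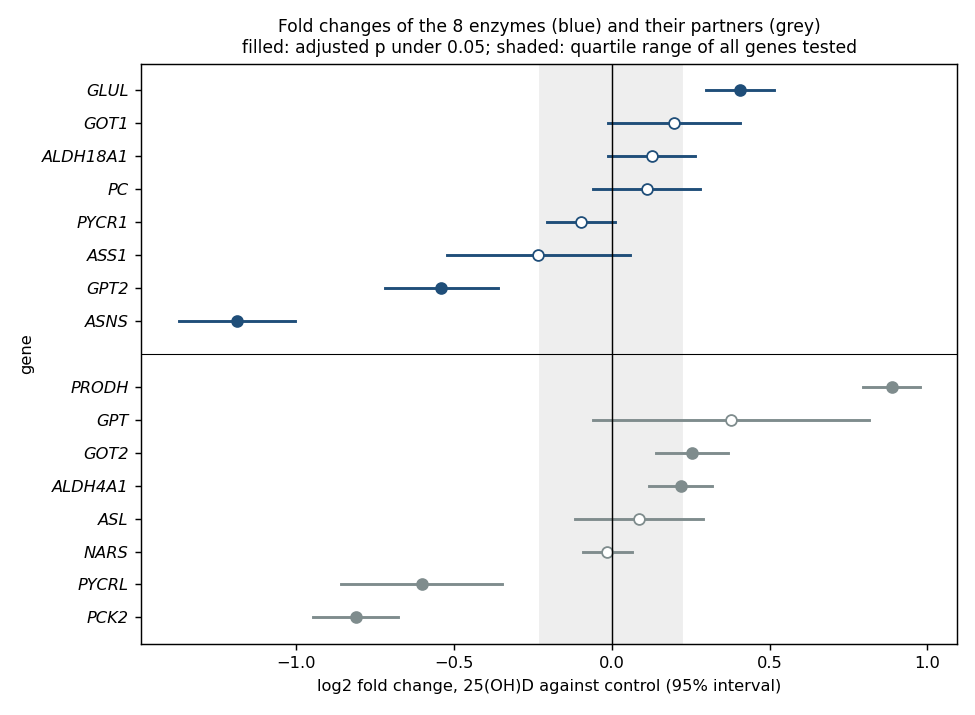
Log2 fold change of 25(OH)D against control (x axis) with its 95% interval for the 8 enzymes (blue) and 8 paralogs or partner enzymes compared with them (grey). Filled points had an adjusted p under 0.05 and the shaded band spans the quartiles of all genes tested, from -0.23 to 0.22. ASNS lies farthest to the left and PRODH farthest to the right.

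ASS1, argininosuccinate synthetase, joins citrulline and aspartate in the synthesis of arginine, and lies on the plus strand of chromosome 9 (130444929 to 130501274). It was the least abundant of the 8, at 5.60, 7.06 and 5.57 CPM in control and at 5.58, 4.86 and 5.06 CPM in 25(OH)D. The highest 25(OH)D library lay within the control range, and the log2 fold change was -0.23 (SE 0.135, 95% interval -0.52 to 0.057, adjusted p = 0.212). The libraries held 165 to 267 counts of ASS1, fewer than of any other of the 8, and the interval spans values from a fall of 0.52 to a rise of 0.057 on the log2 scale. Processed pseudogenes of ASS1 are listed separately and had at most 21 counts in a library. ASL, the lyase of the next step, was at 13.2 ± 0.689 CPM in control and 14.0 ± 1.49 CPM in 25(OH)D (log2 fold change 0.087, adjusted p = 0.524). On the same strand, 17.6% of the exon bases of ASL are shared with AC068533.7, which had 1310 to 1707 counts against 436 to 554 counts of ASL.

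GOT1, the cytosolic aspartate aminotransferase, interconverts aspartate and oxaloacetate and is a member of the malate-aspartate shuttle. The gene lies on the minus strand of chromosome 10 (99396870 to 99430624). It was at 19.1, 22.7 and 22.2 CPM in control and at 25.1, 27.2 and 21.0 CPM in 25(OH)D. The third 25(OH)D library lay inside the control range. The log2 fold change was 0.20 (SE 0.0970, 95% interval -0.010 to 0.41, adjusted p = 0.138), and without that library it was 0.31 and was called (adjusted p = 0.0151). GOT2, the mitochondrial form, rose from 50.7 ± 1.56 to 60.5 ± 2.15 CPM (log2 fold change 0.25, SE 0.0528, adjusted p = 0.00171). The log2 ratio of GOT1 to GOT2 differed by -0.063 between groups with overlapping libraries (exact permutation p = 0.7, where the smallest that 3 libraries against 3 can give is 0.1). That ratio changed sign without 25(OH)D replicate 3 (0.047) or control replicate 2 (0.0091).

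PC, pyruvate carboxylase, is a mitochondrial biotin enzyme that makes oxaloacetate, the precursor of aspartate, and lies on the minus strand of chromosome 11 (66848233 to 66958376). It was at 23.9, 22.3 and 23.5 CPM in control and at 24.2, 28.0 and 23.2 CPM in 25(OH)D. The groups overlapped, with the second 25(OH)D library above the other 5, and the log2 fold change was 0.11 (SE 0.0789, 95% interval -0.058 to 0.28, adjusted p = 0.310). Over its exons, 621 bases (10.5%) lie opposite LRFN4, which had 39 to 67 counts. PCK2, the mitochondrial phosphoenolpyruvate carboxykinase that draws on oxaloacetate, fell from 58.4, 57.2 and 64.2 CPM to 34.3, 35.8 and 32.3 CPM (log2 fold change -0.81, SE 0.0627, adjusted p = 1.69e-07). The ratio of PC to PCK2 per gene length was 0.259 to 0.289 in control and 0.498 to 0.552 in 25(OH)D.

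Per gene length, as RPKM (counts scaled to gene length and library total), the 8 enzymes spanned a wide range. In control the order was PYCR1 (mean 39.7 RPKM), GPT2 (17.7), GOT1 (8.93), GLUL (7.55), ASNS (6.87), ALDH18A1 (6.57), PC (3.98) and ASS1 (2.02). The libraries of GLUL overlapped with those of ASNS, and those of ASNS with those of ALDH18A1, while all other neighbours stood apart. In 25(OH)D the order was PYCR1 (mean 36.0 RPKM), GPT2 (11.8), GOT1 (9.93), GLUL (9.71), ALDH18A1 (6.95), PC (4.17), ASNS (2.92) and ASS1 (1.67), and only GOT1 and GLUL overlapped. ASNS thus moved from rank 5 to rank 7 of the 8. Among all genes tested the level of ASNS went from the percentile 69.4 to 50.2, while PYCR1 was at 93.6 in control.

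**Figure D3:**
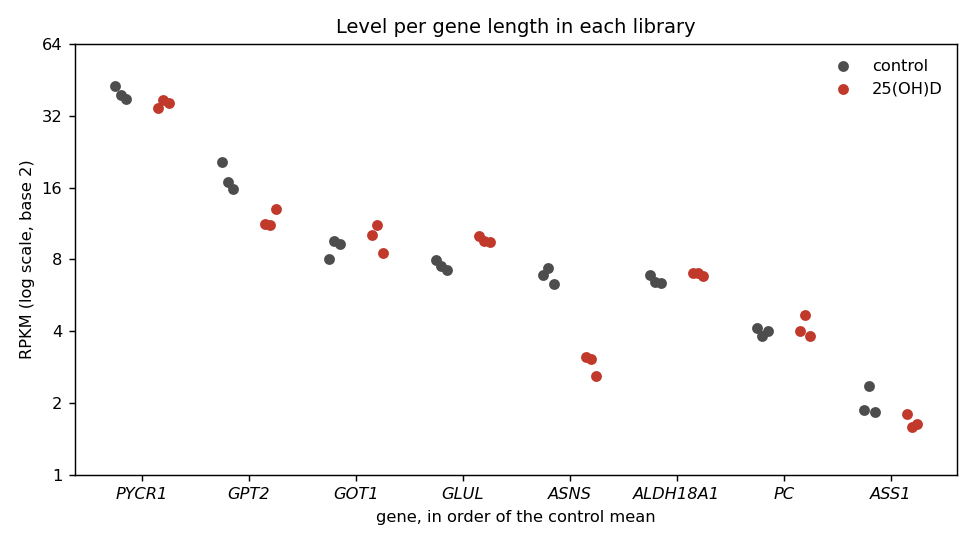
RPKM of each enzyme in every library (y axis, log scale of base 2), with genes in order of the control mean (x axis). Grey points are control and red points are 25(OH)D. PYCR1 is the most abundant in both groups, and ASNS drops from beside ALDH18A1 in control to below PC in 25(OH)D.

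The ratio of 2 genes within a library does not depend on how libraries are scaled. Of 8 ratios of an enzyme to a paralog, an opposing enzyme or an enzyme that shares its substrate or product, 7 had groups that did not overlap. Each of these 7 had an exact permutation p of 0.1, two-sided, which is the smallest that 3 libraries against 3 can give, and 0.125 after Benjamini-Hochberg adjustment over the 10 ratios computed, 2 of which are not reported here, so this design cannot reach 0.05 for a single ratio. On the log2 scale the ratios were lower in 25(OH)D by 1.18 for ASNS to NARS, where the mean went from -4.53 to -5.71. They differed by -0.98 for PYCR1 to PRODH, by -0.90 for GPT2 to GPT and by -0.31 for ASS1 to ASL. The difference for ALDH18A1 to ALDH4A1 was small, at -0.090. The ratios of PC to PCK2 (0.92) and of PYCR1 to PYCRL (0.50) were higher. A difference in a ratio can come from either gene, and PYCR1, ALDH18A1, ASS1 and PC were not called themselves. Groups were also apart for 45.7% of single genes tested, and no such share was computed for ratios.

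**Figure D4:**
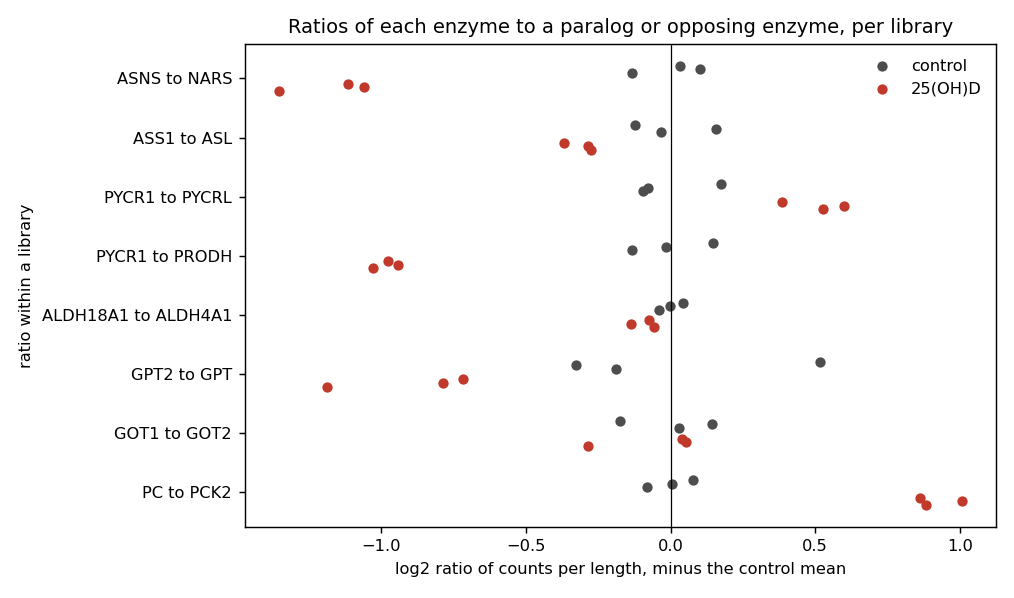
Log2 ratio of each enzyme to its partner within a library, per gene length and with the mean of the control libraries subtracted (x axis), for 8 ratios (y axis). Each point is 1 library, grey for control and red for 25(OH)D. Red and grey points overlap for GOT1 to GOT2 and are apart for the other 7 ratios.

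Around the 8 enzymes, 7 lists of 97 enzymes and carriers were read from the same test, with the 8 left out. Of these, 91 were listed in the table and 77 passed the low-count filter. Of the 77, 19 were higher and 9 lower, and 49 were not called. Over all genes tested, 17.3% were called higher and 16.5% lower, and the counts of each list below are to be read beside these shares. The median log2 fold change of the 77 was 0.074, against -0.011 over all genes. Of the 11 proline genes tested, 5 were higher (PRODH, ALDH4A1, OAT and P4HA1 among them) and 2 lower (PYCRL and EPRS). OAT, ornithine aminotransferase, which links ornithine with the proline pathway, rose from 23.7 ± 0.609 to 39.5 ± 1.95 CPM (log2 fold change 0.74, adjusted p = 4.70e-07). EPRS, which charges transfer RNA with glutamate and proline, fell by 21.5% (log2 fold change -0.35, adjusted p = 2.13e-06).

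Of the 10 asparagine and aspartate genes tested, GOT2 and AGA were higher and none was called lower by edgeR, also at an unadjusted p under 0.05 or by DESeq2, while 1 was called lower by edgeR without the low-count filter. Of the 15 glutamine and glutamate genes, 5 were higher (GLUD1, GLUD2, GFPT1 and NADSYN1 among them) and 4 lower (CAD, CTPS1, PFAS and GMPS). All of those 4 use the amide nitrogen of glutamine in nucleotide synthesis. PPAT and CTPS2 of this list, which also do so, were not called (log2 fold changes 0.15 and -0.039, adjusted p = 0.186 and 0.730). PFAS, of purine synthesis, fell by 44.5% (log2 fold change -0.85, adjusted p = 1.47e-04), and CAD, of pyrimidine synthesis, fell by 23.8% (adjusted p = 9.42e-04). GLUD1, glutamate dehydrogenase, rose by 54.4% (log2 fold change 0.63, adjusted p = 2.55e-05). GLUD2, a near-identical copy without introns, rose with a log2 fold change of 1.02 (adjusted p = 0.0223) on 20 to 62 counts a library, and reads may be divided between the pair.

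Of the 12 arginine and urea cycle genes tested, 0 were called in either direction by edgeR or by DESeq2. At an unadjusted p under 0.05, edgeR gave 1 higher and 1 lower. These were NOS3, the endothelial nitric oxide synthase (log2 fold change 0.70, adjusted p = 0.0583, 33 to 65 counts), and GATM, which starts creatine synthesis from arginine (log2 fold change -0.38, adjusted p = 0.108). Without control replicate 3, without 25(OH)D replicate 2 or without the low-count filter, 1 gene of this list was called higher. Of the 8 aminotransferases tested, GOT2, OAT and ABAT were higher and 0 were lower by edgeR or DESeq2, with 1 lower at an unadjusted p under 0.05. That gene was BCAT2, the mitochondrial aminotransferase of branched-chain amino acids (log2 fold change -0.42, adjusted p = 0.106), and 1 aminotransferase was called lower without control replicate 2, without 25(OH)D replicate 3 or without the low-count filter. PSAT1, the aminotransferase of serine synthesis, had at most 4 counts and BCAT1 at most 8 counts in a library, and neither was tested.

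Of the 15 genes of anaplerosis and the malate-aspartate shuttle, the mitochondrial pyruvate carrier subunits MPC1 and MPC2 were higher and PCK2 and the aspartate-glutamate carrier SLC25A12 were lower. MPC2 rose by 41.5% (log2 fold change 0.50, adjusted p = 3.26e-06). Without control replicate 1, without 25(OH)D replicate 2 or without the low-count filter, 4 genes of this list were higher in place of 2. The list of biotin-dependent carboxylases held 8 genes other than PC, among them HLCS and BTD, which are not carboxylases themselves. Of these 8, 4 were higher (PCCA, MCCC1, MCCC2 and ACACA) and 1 lower (HLCS). ACACA, acetyl-CoA carboxylase of fatty acid synthesis, rose from 122 ± 5.31 to 207 ± 7.65 CPM (log2 fold change 0.77, adjusted p = 9.73e-09). HLCS, the ligase that attaches biotin to PC and the other carboxylases, fell by 24.1% (log2 fold change -0.40, adjusted p = 0.0241), and without control replicate 1 or 2, or without 25(OH)D replicate 2 or 3, 0 genes of this list were lower.

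Of the 18 genes in the list of ATF4 and its partners, 3 were higher and 11 were lower. The median log2 fold change of this list was -0.29. The lower ones included ATF4, its partner CEBPG, DDIT3 and TRIB3. The higher ones were CEBPB, EIF2AK4 and EIF2AK2. CEBPB, also a C/EBP gene, rose from 13.6 ± 5.59 to 23.6 ± 7.72 CPM, with overlapping libraries (log2 fold change 0.78, adjusted p = 0.0262). CHAC1, which degrades glutathione and is a known ATF4 target, fell from 5.42 ± 1.33 to 2.02 ± 0.381 CPM (log2 fold change -1.42, SE 0.204, adjusted p = 7.96e-05). EIF2AK4 (GCN2), the kinase that senses uncharged transfer RNA, rose by 40.7% (log2 fold change 0.49, adjusted p = 2.71e-07). Of the 14 amino acid uptake genes tested, 4 were higher and 3 lower, with 2 higher by limma on log2 RPKM and 6 higher with mitochondrial genes left out. SLC7A11, the cystine and glutamate exchanger, fell from 74.5, 72.8 and 74.9 CPM to 18.0, 16.5 and 17.6 CPM, a log2 fold change of -2.09 (SE 0.0580, adjusted p = 2.13e-12). The glutamine carrier SLC1A5 rose by 12.8% (adjusted p = 0.00619), a call that limma on log2 RPKM did not make, and SLC36A1, a lysosomal carrier of small amino acids that include proline, rose by 67.0% on 136 to 257 counts (log2 fold change 0.74, adjusted p = 0.00154).

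**Figure D5:**
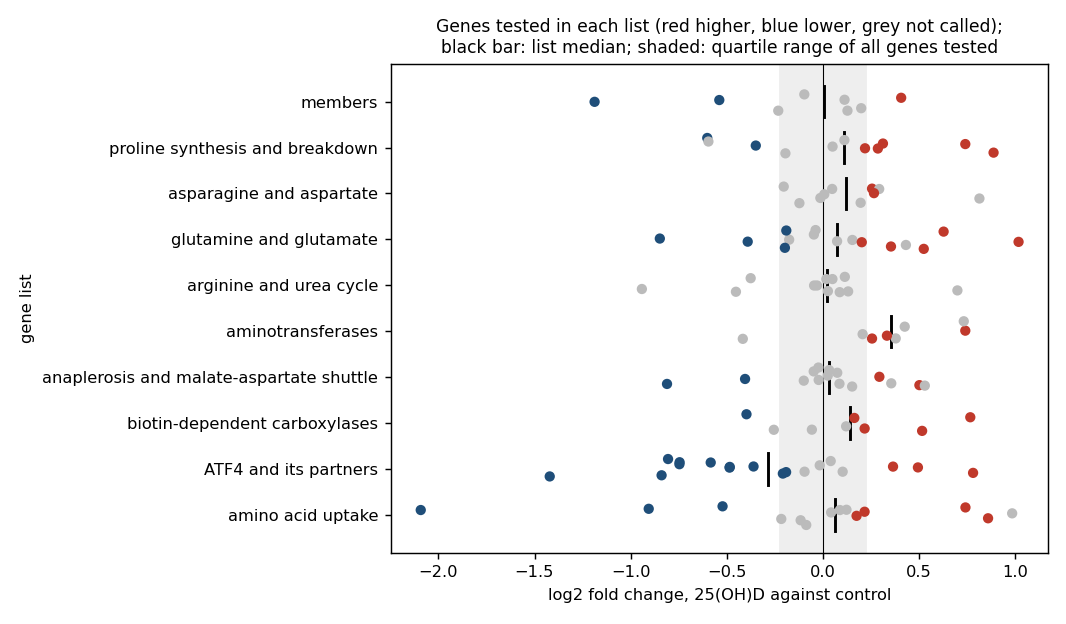
Log2 fold change of 25(OH)D against control (x axis) for the genes tested in each list (y axis), with the 8 enzymes on the top row, labelled members, and left out of the rows under it. Red points were called higher, blue points lower and grey points were not called; the black bar is the list median and the shaded band spans the quartiles of all genes tested. The median of the list of ATF4 and its partners (-0.29) lies to the left of the band, and that of the aminotransferases (0.35) to the right.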

How the data were processed

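The deposited count table gives unnormalised whole read counts of each gene in 6 libraries, and the authors also deposited RPKM values, which equalled count over length over library total (largest relative difference 2.23e-13). Per the labels and the submitters' processing notes, reads were trimmed with Trimmomatic 0.36 and counted on GRCh38 with featureCounts of Subread 1.5.1, and edgeR 3.12.1 was used. The aligner, the annotation release and the strand setting are not given in the sources used here. Only genes with a count in some library are listed.

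Differential expression was computed with edgeR 4.0.16 in R 4.3.3 (TMM, filterByExpr defaults, quasi-likelihood test of 3 libraries of 25(OH)D against 3 of control, no covariates). Replicates differed by more than sampling noise (chi-square per gene 4.01 to 12.1), and the biological coefficient of variation was 0.0788. The scripts were tested on simulated data. Ratios of counts per length within a library were tested by exact permutation, two-sided. Named were the 8 enzymes, their ratio partners, ATF4, MYC and VDR, and from each list the gene with the smallest p in each direction and each gene called with an absolute log2 fold change over 1; other genes were named after their values were seen, and some genes under this rule are not reported here. The 8 genes and all lists were chosen with earlier results of these data known. Alternatives were other scalings, filters, tests (DESeq2 1.42.0, limma 3.58.1), the omission of mitochondrial genes, a replicate block and the omission of each library. Other steps used Python 3.11.15 with scipy 1.17.1. Depth (33268860 to 40928176 counts) limits precision at low counts, and intervals cover these libraries only. Promoters were those of RefSeq, and shared exons were taken from the table.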

Additional observations from a re-analysis of the deposited data

How the results depend on the processing

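ASNS, GPT2 and GLUL kept their direction and their call under all 15 alternatives, with log2 fold changes of -1.23 to -1.01, -0.61 to -0.42 and 0.32 to 0.45 and adjusted p-values of at most 1.69e-04, 0.00709 and 0.00276. No enzyme of the 8 changed direction. PYCR1 was called lower with library totals alone (-0.14, adjusted p = 0.0481) and with upper-quartile factors (-0.14, adjusted p = 0.0406). Leaving out 1 library at a time gave -1.23 to -1.10 for ASNS, -0.61 to -0.42 for GPT2, 0.38 to 0.45 for GLUL, 0.12 to 0.31 for GOT1, 0.12 to 0.16 for ALDH18A1, -0.13 to -0.042 for PYCR1, -0.29 to -0.11 for ASS1 and 0.033 to 0.18 for PC. GOT1 was called higher only without 25(OH)D replicate 3, which brought the enzymes called higher from 1 to 2 (range 1 to 2). The log2 ratio of GOT1 to GOT2 ranged from -0.15 to 0.047 and changed sign without 25(OH)D replicate 3 (0.047) and without control replicate 2 (0.0091). By the limits of the study on fold and unadjusted p, the fit used here gave 731 genes higher and 478 lower, with 0 and 1 of the 8. The study itself reported fewer genes in each direction under these limits. The median of the 7 lists together was 0.030 with library totals alone, 0.032 with upper-quartile factors, 0.029 and 0.025 on log2(RPKM + 0.1) and log2(RPKM + 1), 0.086 without mitochondrial genes, and 0.069 to 0.10 with 1 library left out. The median of all genes, -0.011 with TMM, moved too, to -0.055, -0.053, -0.052, -0.030 and -0.00054 under the first 5 of these, so the lower list medians with library totals alone and upper-quartile factors are a shift of all genes and say nothing of the lists. The lower call of HLCS was lost in the list count on log2 RPKM and without control replicate 1 or 2 or 25(OH)D replicate 2 or 3; the cause was not tested.

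The labels do not say whether same-numbered libraries were paired. Deviations of same-numbered libraries from their group means correlated at -0.072, -0.012 and -0.046, and those of the other pairs at -0.016 to 0.063. These values show no pairing by replicate number, but they cannot exclude it. With the replicate number as a block, 3057 genes were higher and 2896 lower, the log2 fold changes were -1.19 for ASNS (adjusted p = 2.80e-07), -0.53 for GPT2 (4.19e-04) and 0.41 for GLUL (4.04e-05), and no call among the 8 changed. Sign-flip permutation of the ratios within replicate numbers cannot go below 0.25.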
